A study of Mus musculus with 6 samples.

Results

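The ATP-binding cassette (ABC) transporter genes were followed in mammary spheres from before and after tumour formation in MMTV-Neu mice. Members were all gene symbols made of Abc, a subfamily letter from a to g and a number, with an a or b behind it where there is one. Abcc9, Abca1 and Abcg1 were left out. The rule gave 47 of the 19893 symbols that have a row in all 6 tables: 15 in subfamily A, 10 in B, 9 in C, 4 in D, 1 in E, 3 in F and 5 in G. The symbols alone set the membership, and each is represented by its transcript of highest mean count.

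The early lesion (EL) group held 3 libraries of spheres from MMTV-Neu mice aged 14 to 18 weeks with no palpable tumour. The primary tumor (PT) group held 3 libraries of spheres from tumours of mice aged more than 20 weeks. Both groups carry the same transgene, Neu (HER2) under the mammary promoter of the MMTV retrovirus, on the FvB background, and all cells spent 7 days in low-adhesion mammosphere culture. The labels give no cell sort, do not say whether libraries came from separate mice, and name a tissue "mammary lung" for EL.

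ABC proteins bind and hydrolyse ATP. Most use that energy to move lipids, drugs, drug conjugates, peptides or cofactors across a membrane, in the plasma membrane or in mitochondria, peroxisomes and lysosomes. Subfamilies E and F lack membrane-spanning parts and act on ribosomes and translation. In mammary tissue the family is known mainly for drug efflux, and for ABCG2, which pumps riboflavin into milk.

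The tables hold raw counts per transcript, and their totals ran from 69759793 to 85126630 per library. Levels are CPM, the counts of each library scaled to a common total with TMM factors, and are given as mean ± SD (n = 3 per group) unless single libraries are listed. A difference is the log2 fold change, PT minus EL, from edgeR's quasi-likelihood test with its standard error (SE). A gene was called at a Benjamini-Hochberg adjusted p under 0.05. In these libraries 80.7% of all 13844 tested genes were called, 39.9% higher and 40.8% lower in PT, so a call says little by itself and the size of a change carries more. Scaling by library totals alone, without TMM factors, raised the log2 fold changes by a median of 0.25.

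Both groups are labelled breast cancer cells, and markers of other cell types were present and differed between them. The 12 listed fibroblast markers all fell, from a summed 66363 to 70999.6 CPM in EL to 658 to 785 in PT. The 10 endothelial markers all fell, from 279 to 302 CPM to 6.59 to 7.42. The 6 pericyte markers fell, from 457 to 475 CPM to 124 to 132. Of 10 luminal epithelial markers 9 rose and 1, Krt19, fell, and the sum went from between 2418 and 2496.5 to between 8631 and 8938.5 CPM. In such bulk libraries, fewer cells of a type and less RNA per cell cannot be told apart, and the part of these cells in any ABC result was not tested.

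Of the 47 members, 31 passed the count filter and were tested. Of these 31, 27 were called by edgeR, 11 higher and 16 lower in PT, beside the 80.7% of all genes. For 25 of the 31, no EL value lay within the PT range or the reverse, beside 82.7% of all genes tested. Only Abca3 was called and over 2-fold higher, beside 9.43% of all genes, and 8 members were called and over 2-fold lower, beside 19.4%. The median log2 fold change of the tested members was -0.28, against 0.00 for all genes tested. Abca8a passed the filter through its EL libraries alone, and Abca4 and Abcb4 did so mainly through EL, so these counts describe the members that passed and not the whole family. DESeq2 called 10 members higher and 16 lower, beside 77.5% of all genes in either direction. Tested by edgeR against a 2-fold minimum, 1 member was higher, beside 7.3% of all genes, and 7 were lower, beside 17.3%. With library totals 14 members were higher and 12 lower, against 57.2% and 29.7% of all genes.

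**Figure D1:**
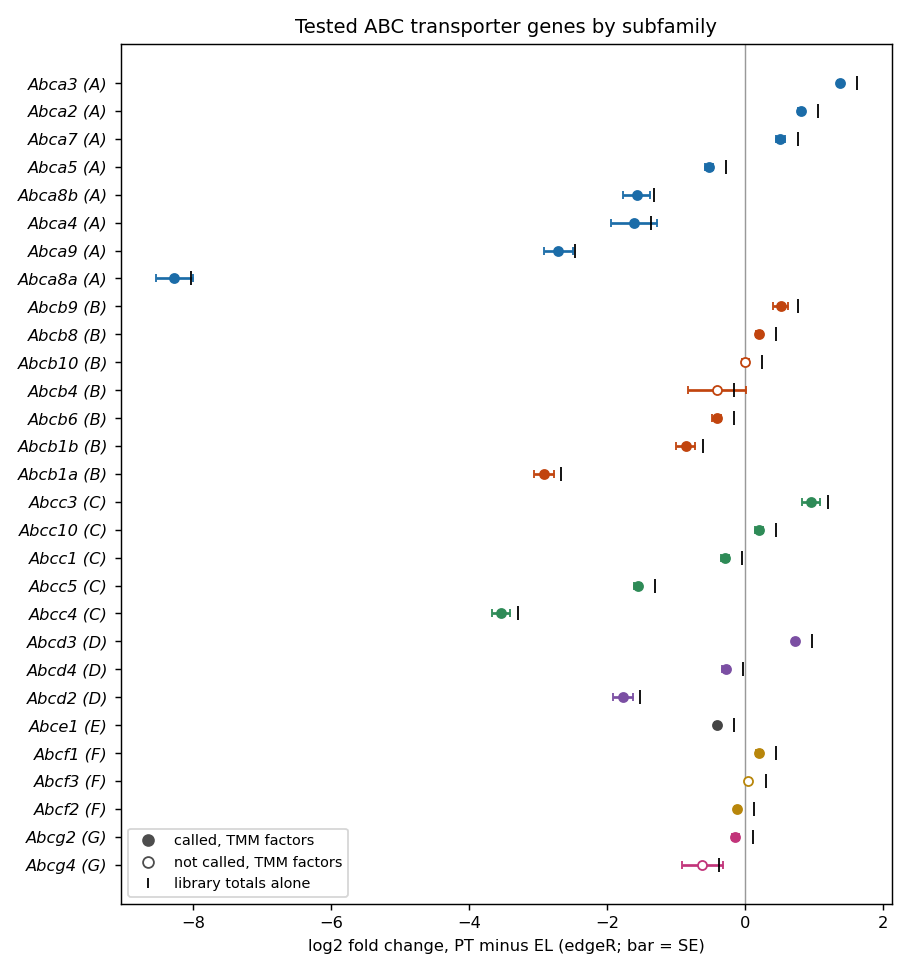
Log2 fold change (PT minus EL) of 29 of the 31 tested members, grouped by subfamily; filled circles were called, open circles were not, bars are SE, and black ticks give the value with library totals alone. Abca8a lies at -8.27 and Abca3 at 1.38, and values near 0, such as those of Abcf2 and Abcg2, change sign with the scaling.

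Subfamily A holds large transporters that mostly move lipids. In PT its members split into 3 that rose and 5 that fell, with none of the 8 tested left uncalled. Of all genes tested, 39.9% were called higher and 40.8% lower. Abca8a had passed the count filter through EL alone, and Abca4 mainly through EL. Abca3, Abca2 and Abca7 rose, and Abca8a, Abca9, Abca4, Abca8b and Abca5 fell. Summed over the subfamily, the level went from 212 ± 1.40 CPM in EL to 340.0 ± 4.95 in PT (SD, n = 3 each), which is a sum of counts not corrected for length and is led by Abca3.

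Abca3 loads phospholipid into the lamellar bodies of lung alveolar cells. Its gene lies on chromosome 17 at 24351921 to 24410204 (GRCm38). It stood at 67.7, 69.1 and 68.7 CPM in the 3 EL libraries and at 181, 178 and 175 in PT. The PT libraries were all above the EL libraries, by a gap much wider than the spread within either group. The log2 fold change was 1.38 (SE 0.03; edgeR adjusted p = 1.55e-13), a 2.60-fold rise. D330041H03Rik, on the opposite strand, shares 9.75% of its exon bases, and the strand setting of the counting is not given in the sources used here.

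Because the EL label names lung and Abca3 is a lung surfactant gene, the 9 listed lung epithelial markers were read beside it. Their summed level was 16.9 to 19.1 CPM in EL and 122 to 134 in PT. Sftpa1, Scgb1a1 and Nkx2-1 had 0 counts in all 6 libraries, and the surfactant genes Sftpb and Sftpc were too low to test, with Sftpc at 0.0744 ± 0.0747 CPM in EL and 0.200 ± 0.0182 in PT. Ager, at 1.24 ± 0.224 and 1.40 ± 0.111 CPM, and Napsa, at 1.28 ± 0.195 and 1.06 ± 0.266, were not called. The collectin gene Sftpd rose from 8.07 ± 0.849 to 72.1 ± 3.27 CPM (log2 change 3.16 ± 0.06 SE), and Foxj1, a transcription factor of ciliated cells, from 7.24 ± 0.881 to 53.1 ± 3.03 (2.87 ± 0.07 SE). The part of such cells in the rise of Abca3 was not tested.

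Abca2, a lysosomal lipid transporter, and Abca7, a phospholipid transporter whose human form is a risk gene for Alzheimer disease, moved the same way as Abca3. The level of Abca2 was 49.8 ± 1.24 CPM in EL and 87.0 ± 0.363 in PT (log2 change 0.81 ± 0.03 SE). For Abca7 the level went from 30.8 ± 3.00 to 43.9 ± 2.36 CPM (0.51 ± 0.06 SE).

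Several of the members that fell lie in tandem. Abca8b, Abca8a, Abca9, Abca6 and Abca5 lie side by side on chromosome 11 between 109932206 and 110337723 (GRCm38). Abca8b, Abca8a, Abca9 and Abca5 were tested and called lower, as were 40.8% of all genes, and Abca8a had entered the test through its EL libraries alone. Their products are close relatives of less well known function, and reads of such similar genes could be split between them in the counting.

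Abca8a was at 15.1, 10.5 and 11.6 CPM in EL and at 0.0390, 0.0374 and 0.0359 in PT. The EL libraries together held 1497 counts of it and those of PT 6, 2 in each. The ratio of EL to PT was 332 (exact 95% interval 152 to 906, counting error only), and the fitted log2 fold change -8.27 (SE 0.27; edgeR adjusted p = 8.73e-12). No other tested member fell by as much, but Abca8a passed the count filter through EL alone, which limits its p-value and its rank.

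Abca9 was at 5.62, 4.15 and 4.41 CPM in EL and at 0.448, 0.768 and 0.934 in PT (log2 change -2.71 ± 0.21 SE). For Abca8b the values were 4.10, 2.69 and 2.79 CPM in EL and 0.955, 1.14 and 1.11 in PT (-1.57 ± 0.19 SE). EL replicate 1 was the highest library for all of Abca8a, Abca9 and Abca8b, and the groups still did not overlap for any of them. Abca8b retained 172 counts in PT where Abca8a had 6. Abca5, a transporter of late endosomes and lysosomes, changed least in the group, from 41.4 ± 3.71 to 28.6 ± 0.174 CPM (-0.53 ± 0.06 SE). Abca6 was too low to test, with 35 EL counts against 2 in PT, so that the ratio was 23.3 (exact 95% interval 5.98 to 199.7, from counting alone).

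The starts of Abca8a and Abca3 are shown because these members changed most in each direction, and that of Abca8b because it is the near copy of Abca8a that fell less. Each window is from RefSeq on GRCm38.p6 and runs from 250 bases before to 50 bases after an annotated start, written 5′ to 3′ along the gene with every CG dinucleotide in capitals. The windows are chr11:110095888-110096187 (minus strand) for Abca8a, chr11:109995796-109996095 (minus strand) for Abca8b and chr17:24351773-24352072 (plus strand) for Abca3. In all 3 the annotated start used lies inside the gene's RefSeq span and not at its outer end.
Abca8a: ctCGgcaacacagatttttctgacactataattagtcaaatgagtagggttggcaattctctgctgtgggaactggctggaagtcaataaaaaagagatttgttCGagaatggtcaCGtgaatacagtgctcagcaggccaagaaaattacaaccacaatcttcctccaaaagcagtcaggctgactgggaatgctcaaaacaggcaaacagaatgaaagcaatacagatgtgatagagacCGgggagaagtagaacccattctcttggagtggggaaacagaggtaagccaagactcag
Abca8b: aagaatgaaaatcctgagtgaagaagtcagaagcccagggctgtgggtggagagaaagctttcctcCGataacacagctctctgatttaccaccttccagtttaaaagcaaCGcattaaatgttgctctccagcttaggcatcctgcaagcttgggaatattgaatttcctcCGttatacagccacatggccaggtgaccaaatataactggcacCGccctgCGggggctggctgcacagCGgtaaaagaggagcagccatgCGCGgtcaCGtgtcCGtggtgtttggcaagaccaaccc
Abca3: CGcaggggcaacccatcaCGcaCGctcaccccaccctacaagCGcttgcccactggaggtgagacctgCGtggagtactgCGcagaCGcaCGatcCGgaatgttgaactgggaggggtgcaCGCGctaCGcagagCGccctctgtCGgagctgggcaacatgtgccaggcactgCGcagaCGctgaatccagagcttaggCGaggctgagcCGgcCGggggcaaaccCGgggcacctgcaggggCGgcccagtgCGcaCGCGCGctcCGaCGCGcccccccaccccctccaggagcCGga
The windows hold 4, 10 and 29 CG dinucleotides. The 6 letters CACGTG, which read the same on both strands, occur in the windows of Abca8a and Abca8b and not in that of Abca3. They occur in 7.24% of the 27025 windows, 1 per gene, in the table.

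Abca4, the retinal transporter of photoreceptors, fell from 0.597 ± 0.0496 to 0.191 ± 0.0874 CPM (log2 change -1.62 ± 0.33 SE), on 72 and 31 counts. The other members of subfamily A were not tested. Abca12, which moves lipid in keratinocytes, had 15 counts in EL and 40 in PT. Abca13 had 16 and 3, with EL replicate 1 at 0.270 CPM and the other EL libraries at 0.0252 and 0.0996. Abca17 had 9 and 13 counts, and Abca14, Abca15 and Abca16 had at most 2 in either group.

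Subfamily B holds the P-glycoprotein drug pumps, bile transporters, and transporters of mitochondria and lysosomes. The drug pump genes fell, Abcb1a more than Abcb1b, and the mitochondrial members went both ways. Of 8 tested members 3 rose, Abcb9 and Abcb8 among them, 3 fell (Abcb1a, Abcb1b and Abcb6) and 2 were not called (Abcb10 and Abcb4). Over all genes tested, 39.9% were higher and 40.8% lower, so these counts do not set the subfamily apart.

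In mice P-glycoprotein, which expels many hydrophobic drugs, is encoded by both Abcb1a and Abcb1b. They lie with Abcb4 on chromosome 5 between 8567091 and 8959226 (GRCm38). Abcb1a, known from the endothelium of brain capillaries, was at 4.27, 4.48 and 5.01 CPM in EL and at 0.585, 0.580 and 0.647 in PT. All PT values lay far below all EL values (log2 change -2.92 ± 0.15 SE; edgeR adjusted p = 9.52e-10), a 7.56-fold fall. The 10 endothelial markers, at 279 to 302 CPM in EL and 6.59 to 7.42 in PT, moved the same way, and their part in the fall of Abcb1a was not tested.

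Abcb1b was at 2.78, 2.69 and 3.29 CPM in EL and at 1.54, 1.67 and 1.60 in PT. The groups did not overlap, and the fall was 1.82-fold (log2 change -0.86 ± 0.14 SE; edgeR adjusted p = 8.51e-05). Per kilobase of transcript, Abcb1a stood at 0.918 ± 0.0756 CPM and Abcb1b at 0.678 ± 0.0748 in EL, and in PT the order was the reverse, 0.121 ± 0.00740 for Abcb1a and 0.372 ± 0.0147 for Abcb1b. The pair are close copies, so the split of reads between them is uncertain. Gm42686 and Gm5106, both on the opposite strand, share 10.1% of the exon bases of Abcb1a and 1.79% of those of Abcb1b. Abcb4, the phosphatidylcholine transporter of bile, had 40 counts in each group and was not called (edgeR adjusted p = 0.39). Without PT replicate 2 its log2 fold change went from -0.41 to -1.05 and it was called lower.

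The start windows of the P-glycoprotein pair are shown because these neighbours changed by different amounts. They are chr5:8566841-8567140 for Abcb1a and chr5:8797897-8798196 for Abcb1b, both on the plus strand of GRCm38.p6, from RefSeq, with CG in capitals as before.
Abcb1a: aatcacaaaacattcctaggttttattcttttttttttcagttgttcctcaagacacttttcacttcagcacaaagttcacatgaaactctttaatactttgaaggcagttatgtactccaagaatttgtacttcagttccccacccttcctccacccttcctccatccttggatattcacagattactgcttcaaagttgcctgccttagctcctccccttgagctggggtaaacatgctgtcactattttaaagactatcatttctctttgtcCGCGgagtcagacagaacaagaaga
Abcb1b: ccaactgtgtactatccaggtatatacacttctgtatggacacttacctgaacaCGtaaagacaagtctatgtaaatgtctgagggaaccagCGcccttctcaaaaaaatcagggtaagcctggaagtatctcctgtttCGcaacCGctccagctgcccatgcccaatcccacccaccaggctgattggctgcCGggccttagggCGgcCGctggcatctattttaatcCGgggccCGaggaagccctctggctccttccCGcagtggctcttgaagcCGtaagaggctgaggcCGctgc
The window of Abcb1a holds 2 CG dinucleotides and that of Abcb1b 12. The letters GGGCGG, searched on both strands, occur in the window of Abcb1b, as in 35.9% of all windows, and not in that of Abcb1a.

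Among the mitochondrial members, Abcb8 rose from 29.4 ± 1.60 to 33.7 ± 0.444 CPM (0.20 ± 0.05 SE). Abcb6, linked to porphyrin transport, fell from 18.9 ± 1.57 to 14.2 ± 0.0949 CPM (-0.41 ± 0.06 SE), and 55.2% of its exon bases are shared with Gm29253 on the same strand. Abcb10, needed for haem synthesis in red cell precursors, was at 30.5 ± 1.62 and 30.6 ± 1.38 CPM (edgeR adjusted p = 0.962), and with library totals it was called higher (0.25).

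Abcb9, a peptide transporter of lysosomes related to the TAP proteins, was at 3.54, 3.20 and 3.16 CPM in EL and at 5.05, 4.49 and 4.58 in PT. All PT libraries were above all EL libraries (log2 change 0.51 ± 0.11 SE). Abcb11, the bile salt pump, had 1 count in EL and 5 in PT, and Abcb5 had 0 counts in all libraries. For a count of 0 over a group, up to 3 counts cannot be told from none at this depth.

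**Figure D2:**
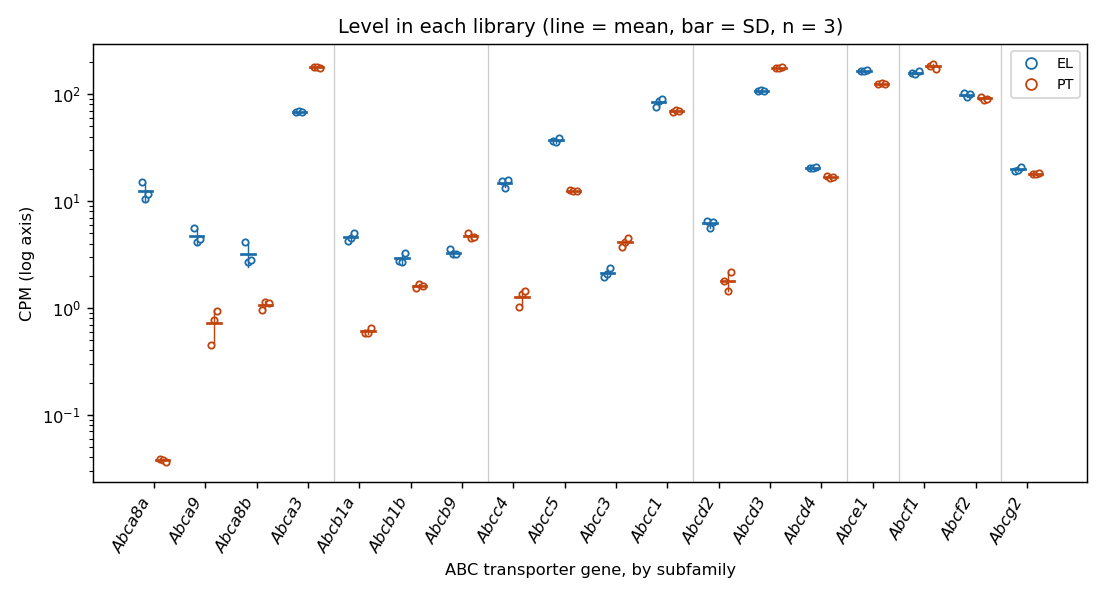
Level in CPM (log axis) of 18 members in each of the 3 EL and 3 PT libraries, ordered by subfamily; circles are libraries, lines are means and bars SD (n = 3). Abca8a, Abcb1a and Abcc4 show wide gaps between the groups, whereas the EL and PT values of Abcf2 overlap.

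Subfamily C holds the multidrug resistance proteins (MRPs), which export anions such as glutathione conjugates and cyclic nucleotides. The exporters of cyclic nucleotides, Abcc4 and Abcc5, fell most, Abcc3 rose, and Abcc1 changed little. Of 5 tested members 2 rose and 3 fell, beside 39.9% and 40.8% of all genes. The summed level went from 153 ± 7.94 CPM in EL to 104 ± 2.15 in PT (SD, n = 3 each), again as counts not corrected for length.

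Abcc4, which also exports prostaglandins, was at 15.4, 13.2 and 15.8 CPM in EL and at 1.01, 1.35 and 1.44 in PT. The fall was 11.6-fold with no overlap (log2 change -3.54 ± 0.12 SE; edgeR adjusted p = 1.56e-11). Abcc5 was at 36.6, 35.3 and 38.6 CPM in EL and at 12.7, 12.5 and 12.3 in PT. The 3 PT libraries were close to each other and all below EL (-1.56 ± 0.05 SE). A short transcript of Abcc5, of 1136 bases against 5811 for the one tested, went from 7.89 ± 0.325 to 2.13 ± 0.101 CPM, a log2 ratio of -1.89 with no test. The 2 transcripts of Abca3 had 36816 and 36813 counts over all libraries, so transcripts of a gene appear to share reads. The short transcript of Abcc5 is therefore not taken as an independent measure. Fibroblast and endothelial marker levels fell beside both genes, as given above.

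Abcc3, which moves organic anions across the basolateral membrane of epithelia, was at 1.97, 2.09 and 2.34 CPM in EL and at 3.72, 4.10 and 4.53 in PT. It was higher in all PT libraries (log2 change 0.95 ± 0.13 SE). Abcc1, the glutathione conjugate and leukotriene exporter, was the most abundant of the subfamily, at 75.8, 87.1 and 90.9 CPM in EL and 67.5, 70.4 and 69.3 in PT. Its EL libraries were more spread than its PT libraries, without overlap. The call of Abcc1 (-0.29 ± 0.05 SE; edgeR adjusted p = 2.91e-04) ended with library totals, where the log2 fold change was -0.05 (adjusted p = 0.428).

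Abcc10, a further exporter of the subfamily, rose from 14.8 ± 0.946 to 17.0 ± 0.383 CPM (log2 change 0.20 ± 0.06 SE). The untested members were scarce. Abcc2, the canalicular anion pump of liver, had 21 counts in EL and 23 in PT. Abcc12 had 2 and 8, and Abcc8, the sulphonylurea receptor of pancreatic beta cells, 5 and 2. Abcc6 had 0 counts in all 6 libraries.

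Subfamily D serves peroxisomes and lysosomes. Abcd3, which brings branched-chain and bile acid intermediates into peroxisomes, rose, and Abcd2, which carries very long fatty acids, fell. Abcd3 was at 107, 109 and 106 CPM in EL and at 177, 174 and 179 in PT. Its groups were far apart beside their spread (log2 change 0.72 ± 0.03 SE; edgeR adjusted p = 8.57e-11). Abcd2 was at 6.56, 5.54 and 6.43 CPM in EL and at 1.77, 1.44 and 2.19 in PT. It was lower in every PT library than in any EL library, by 3.42-fold (-1.77 ± 0.15 SE).

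Abcd4, which helps move vitamin B12 out of lysosomes, was at 20.3, 20.5 and 20.8 CPM in EL and at 17.2, 16.5 and 16.9 in PT. The groups were tight and apart (-0.28 ± 0.05 SE), but with library totals Abcd4 stood at -0.04 and was not called.

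The proteins of subfamilies E and F are not transporters. Abce1, which splits ribosomes after translation ends, fell, and Abcf1, which binds the initiation factor that brings the first tRNA, rose slightly. Abce1 was at 166, 165 and 167 CPM in EL and at 125, 127 and 125 in PT (log2 change -0.40 ± 0.03 SE; edgeR adjusted p = 2.59e-08). All PT libraries were below all EL libraries, and the fall was 1.32-fold. Abcf1 was at 158, 154 and 165 CPM in EL and at 185, 190 and 171 in PT, without overlap (0.20 ± 0.04 SE).

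Abcf2 was at 103, 94.6 and 99.7 CPM in EL and at 94.7, 88.6 and 91.0 in PT, and the groups overlapped by a narrow margin. The log2 fold change of Abcf2 was -0.11 (SE 0.04; edgeR adjusted p = 0.0155), ended as a call without PT replicate 2 (-0.09) or PT replicate 3 (-0.11), and turned to 0.13 with library totals. Abcf3 was not called (54.0 ± 1.95 and 55.8 ± 0.912 CPM; adjusted p = 0.259 by edgeR), yet was called higher with library totals (0.29) and with upper-quartile factors (0.10).

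Subfamily G holds half-size transporters of sterols and drugs. Abcg2, the breast cancer resistance protein, was at 19.2, 19.7 and 20.7 CPM in EL and at 18.0, 17.8 and 18.2 in PT. The groups lay close together without overlap, at a 1.10-fold difference (log2 change -0.14 ± 0.05 SE; edgeR adjusted p = 0.0220). The call of Abcg2 ended without EL replicate 3 (-0.11), PT replicate 1 (-0.14) or PT replicate 2 (-0.13), and the value turned to 0.11 with library totals (adjusted p = 0.0668). Abcg4, a sterol transporter known from the nervous system, was at 0.481 ± 0.115 and 0.313 ± 0.0499 CPM and was not called (adjusted p = 0.0732 by edgeR). It was called lower without EL replicate 3 (-0.80). Abcg3 had 14 and 12 counts, and the intestinal sterol exporters Abcg5 and Abcg8 had 1 and 4 counts in EL and 0 in PT.

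**Figure D3:**
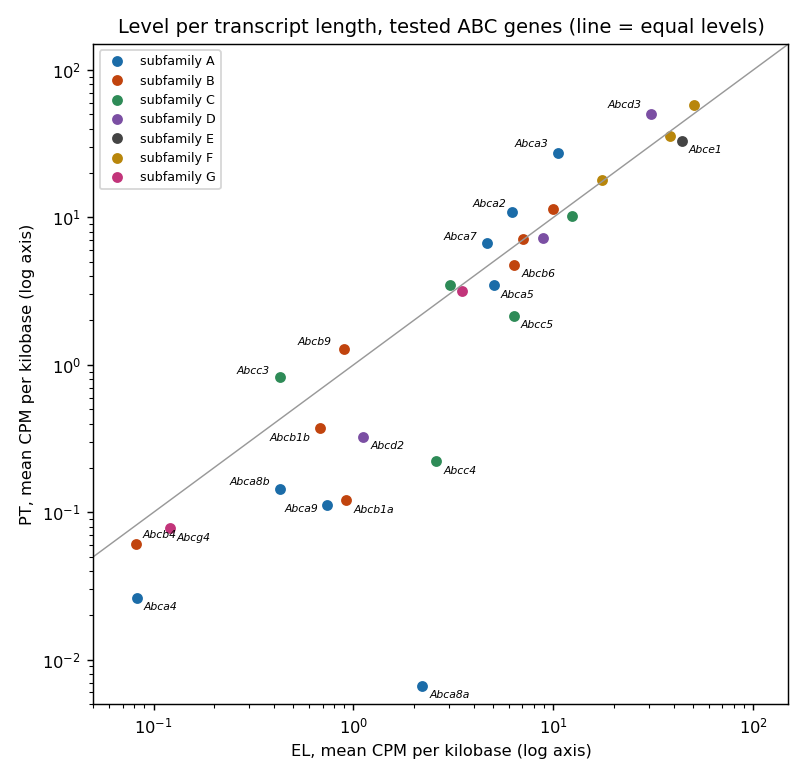
Mean level per kilobase of transcript in EL (x axis) and PT (y axis) for 29 of the 31 tested members on log axes, with the line of equal levels. Abcf1, Abcd3, Abcf2 and Abce1 lie at the top on both axes, and Abcc4, Abca8a and Abcb1a lie below the line; the names of members close to the line are left out.

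Levels can be set side by side between genes only per length, here with the length of the matching GENCODE M21 transcript. In EL the most abundant members per kilobase were Abcf1 at 50.2 ± 1.79 CPM, Abce1 at 43.8 ± 0.236, Abcf2 at 38.5 ± 1.59 and Abcd3 at 30.7 ± 0.393. Abcf1 also led in PT at 57.5 ± 3.11, followed by Abcd3 at 50.6 ± 0.747, Abcf2 at 35.6 ± 1.18, Abce1 at 33.1 ± 0.412 and Abca3 at 27.5 ± 0.457. In EL Abca3 had been at 10.6 ± 0.111, below Abcf3 at 17.5 ± 0.632 and Abcc1 at 12.5 ± 1.15. Among Abcb1a, Abcb1b, Abcg2 and the MRP genes, Abcc1 was the most abundant per kilobase in both groups, at 12.5 and 10.2 CPM. Behind it in EL came Abcc5 at 6.34, Abcg2 at 3.47 and Abcc10 at 3.04, and in PT Abcc10 at 3.5, Abcg2 at 3.15 and Abcc5 at 2.15.

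The start windows of other members were read as for those printed. RefSeq windows were found for 36 of the 47 members, 23 of them tested, and where a gene had several windows the outermost was used. The 7 members called higher had between 17 and 45 CG dinucleotides, with a median of 26. The 13 members called lower had between 2 and 41, with a median of 13. The 7 of these that were over 2-fold lower had the same range, with a median of 10. Abca9 and Abcb1a had 2 each, Abca8a 4, and Abcc4 41 although it fell 11.6-fold. For comparison, the median was 20 over 4190 genes called higher and 20 over 4159 genes called lower. It was 16 over 1859 genes called over 2-fold lower, and 20 over all 10395 tested genes with a window. No test was run on these numbers.

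**Figure D4:**
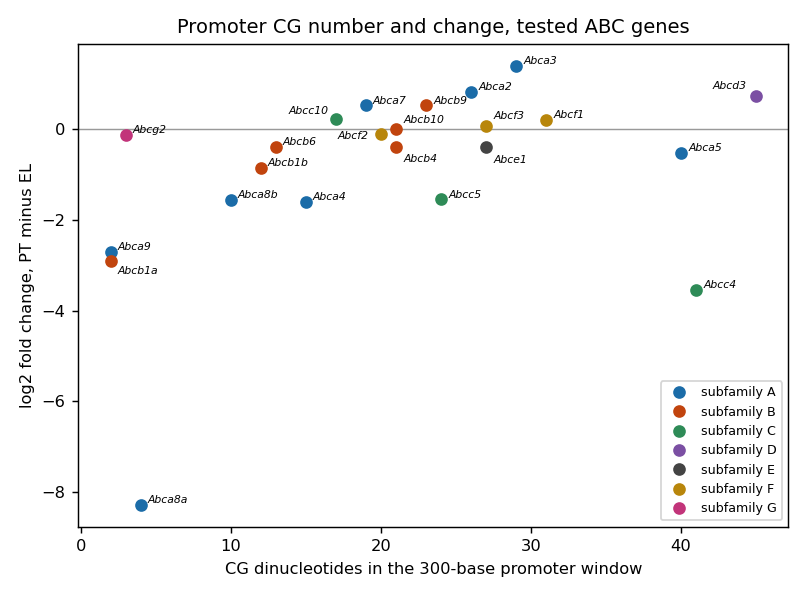
Number of CG dinucleotides in the start window (x axis) and log2 fold change, PT minus EL (y axis), for the 23 tested members with a window, by subfamily. Members with 2 to 15 CG all lie below 0, although Abcg2 moves above it with library totals, and those with more lie on both sides, with Abcc4 at -3.54.

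Genes that work beside the family were read from lists drawn from textbook knowledge. The ABC genes with other names were Tap1 and Tap2, which carry peptides for antigen presentation, and the chloride channel gene Cftr. Tap1 went from 26.7 ± 2.30 to 33.5 ± 2.30 CPM (log2 fold change 0.33) and Tap2 from 67.3 ± 0.938 to 78.1 ± 3.26 (0.21), both called by edgeR, and Cftr was not called (adjusted p = 0.415 by edgeR).

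Genes of the SLCO and SLC22 families, many of which take up organic ions, were read as a counterpart of ABC efflux. Not every gene on the list is an established uptake carrier. Of 14 tested genes 12 rose and 2 fell by the edgeR test, with a median of 1.03, beside the 39.9% of all genes called higher. Slc22a3 passed the count filter through PT alone and Slco2b1 mainly through PT. The counts and the median therefore describe the genes that passed and not the whole list. Slco1a5 went from 13.3 ± 0.219 to 59.9 ± 2.06 CPM (log2 fold change 2.17), Slco3a1 from 45.7 ± 1.12 to 127 ± 3.07 (1.47) and the prostaglandin carrier Slco2a1 from 166 ± 6.83 to 369.8 ± 11.4 (1.16). The prostaglandin exporter Abcc4 was lower in the same PT libraries. The genes that fell were Slco5a1 (-3.51) and Slco4a1 (-1.68), named after their values were seen.

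Peroxisome genes were read beside subfamily D. Of 25 tested 22 rose and 2 fell, beside 39.9% and 40.8% of all genes, with a median of 0.36 and no gene past the test against a 2-fold minimum. Abcd3 rose with them while Abcd2 fell. Hsd17b4, an enzyme of peroxisomal beta-oxidation, went from 82.6 ± 2.55 to 115.8 ± 2.00 CPM (log2 fold change 0.49), and Pex26, a membrane anchor for the import machinery, was at 0.80. Genes of iron-sulphur clusters and haem, which work beside the mitochondrial members, mostly changed little, with 10 higher and 4 lower of 19 (median 0.19), beside the same 39.9% and 40.8%. The values were -0.63 for the chaperone Hspa9, -0.71 for Isca1 and -0.41 for ferrochelatase, Fech. With library totals 15 were higher and 3 lower, beside 57.2% and 29.7% of all genes.

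Of 15 genes of translation termination and ribosome recycling, the partners of Abce1, 4 rose and 8 fell (median -0.08), beside 39.9% and 40.8% of all genes. With library totals 11 were higher and 2 lower, beside 57.2% and 29.7%, and without PT replicate 1 only 5 were called lower. The initiation factor gene Eif2s2 was at -0.64, Pelo, a partner of Abce1 in ribosome rescue, at -0.46 and Eif2d at 0.39. Eif3j1 and Eif3j2 had the same counts in these tables and are not independent.

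Of 11 tested receptors and sensors that control ABC genes, 3 were higher and 5 lower, beside 39.9% and 40.8% of all genes, and with library totals 6 and 4, beside 57.2% and 29.7%. The antioxidant factor gene Nfe2l2 went from 170 ± 2.84 to 124 ± 2.21 CPM (log2 fold change -0.45), the dioxin receptor gene Ahr from 79.9 ± 3.99 to 52.2 ± 2.76 (-0.61) and its partner Arnt was at -0.26. Lipid efflux and lipoprotein genes split, with 4 higher and 5 lower of 9 (median -0.78, all genes as above). The 3 of smallest p, named by rule, were all among the lower: Pltp (-2.73), Npc2 (-0.84) and Npc1 (-0.78). Lcat, also among the lower, passed the count filter through EL alone. Kcnj8, the channel subunit that pairs with sulphonylurea receptors and is also on the pericyte list, was at -2.73, and its relative Kcnj11 was too low to test.

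**Figure D5:**
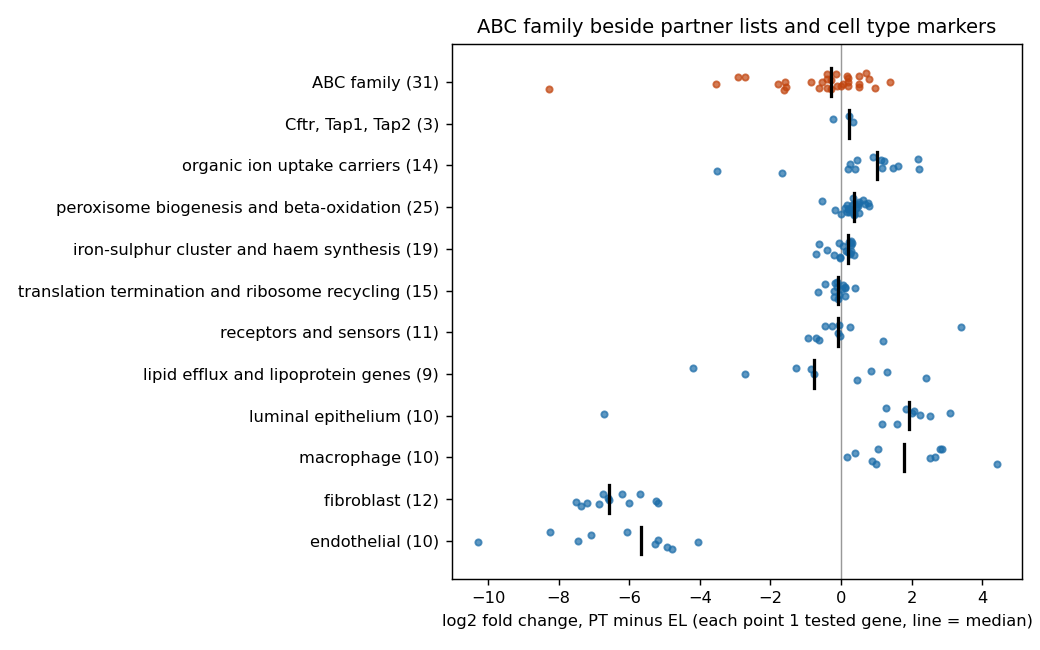
Log2 fold change (PT minus EL) of each tested gene in the ABC family, in the partner lists and in 4 cell type marker lists; black lines are medians and the number of tested genes is in brackets. The ABC family spans -8.27 to 1.38 around a median of -0.28. The SLCO and SLC22 genes (labelled organic ion uptake carriers) lie mostly above 0, and the fibroblast and endothelial markers lie below -4.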

How the data were processed

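Per the labels' protocols, spheres were grown from digested mammary glands or tumours and polyadenylated RNA was sequenced on an Illumina MiSeq. What the authors deposited are raw counts for single RefSeq transcripts; the submitters' processing notes name STAR, featureCounts, DESeq2, mm10 and hg19, with no version, parameter or strand setting stated in the sources used here. In EL replicate 1 the table breaks off after 27664 of 33068 rows. Rows present in all 6 tables were used, with the transcript of highest mean count per symbol; all 47 members have such rows.

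The test was edgeR 4.0.16 under R 4.3.3 (filterByExpr with minimum count 10, TMM factors, glmQLFTest), checked on simulated data. In the simulation few genes changed, as many up as down, so it could not check the scaling between the groups. SE is the log2 fold change divided by the root of the F statistic. P-values measure the spread between libraries, which may be technical. Alternatives used DESeq2 1.42.0, limma 3.58.1 (voom), other scalings, filters, thinning and libraries left out. Same-numbered libraries did not deviate together (correlations of 0.0222, 0.00839 and -0.00216), so numbers were not taken as pairs.

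Per-library values are given for up to 4 called members per subfamily with the largest absolute log2 fold change and a mean count of at least 20, and for 8 fixed members (Abcb1a, Abcb1b, Abcc1, Abcg2, Abca3 and Abce1 among them), 20 in all; partner lists give up to 3 called members of smallest p. A few genes that these rules name, 2 of them members, are not reported here; counts, medians and sums include them. Members and lists were chosen with earlier results of these data known. Marker lists not described in the report gave, of tested genes, 9 of 10 higher for macrophages, 3 of 3 lower for adipocytes, 3 higher and 6 lower of 9 for basal cells, and 1 of 1 higher for lymphocytes. For red blood cells, edgeR called 0 of the 1 tested gene (0 at an unadjusted p under 0.05), and no mast cell marker was tested. Positions and start windows are RefSeq's on GRCm38.p6, and lengths are GENCODE M21's.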

Additional observations from a re-analysis of the deposited data

How the results depend on the processing

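Of the 31 tested members, 22 kept direction and call, leaving aside a 2-fold minimum, under each alternative that gave them a value; 1 of the 22, Abca4, was not tested when a CPM of at least 1 in 3 libraries was required, which left 28 members and 4 in place of 5 lower in A. Abcf2 turned from -0.11 to 0.13 and Abcg2 from -0.14 to 0.11 with library totals. Against a 2-fold minimum edgeR called 3401 genes in place of 11173, and 1 member higher and 7 lower in place of 11 and 16; by subfamily, higher and lower, these were 1 and 3 in A, 0 and 1 in B, 0 and 2 in C, 0 and 1 in D, and 0 in each direction in E, F and G. Changes under 2-fold cannot pass that test by construction; Abca4, 3.06-fold lower, also missed it (adjusted p = 0.0522). In subfamily D 1 member in place of 2 was higher with DESeq2 and with thinned counts, and 1 in place of 2 was lower with library totals. In subfamily F 2 were higher and 0 lower with upper-quartile factors, and 3 and 0 with library totals. In subfamily G 0 in place of 1 was lower with upper-quartile factors and with library totals. With 1 library left out, between 10758 and 11283 genes were called, with 10 to 12 members higher and 16 to 17 lower. The ranges were 3 to 4 higher and 5 to 6 lower in A, and 3 to 4 lower in B. They were 1 to 2 higher in D, 0 to 1 lower in F and 0 to 1 lower in G. The fit with a replicate block gave 11 members higher and 16 lower and changed no member's call. Beyond these constructions the cause was not tested. Members with few counts, such as Abca4 and Abcb4, are limited by depth.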

Other observations

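Among the receptors and sensors, the xenobiotic receptor gene Nr1i2 was scarce, at 0.0330 ± 0.0286 CPM in EL and 0.373 ± 0.0596 in PT (n = 3 each). It was called higher by edgeR (log2 fold change 3.39, SE 0.56). Nr1i2 passed the count filter through its PT libraries alone, and it was named after its values were seen.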
